A study of Mus musculus with 4 samples.

Results

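Malat1, Neat1, Gas5, Snhg1, Snhg3, Snhg5, Snhg6, Snhg8 and Snhg12 are long noncoding RNA (lncRNA) genes that are usually counted among the abundant noncoding transcripts of mammalian cells. They were given as a list of symbols and were found in the gene tables by Ensembl gene ID, 9 of 50600 genes. Every gene on the other strand that shares at least 50 exon bases with one of them was also taken, which gave 4 genes. The RNA came from T-helper 2 cells, a CD4 T cell subset known for interleukin-4, differentiated as primary cells from C57BL/6NJ mice. All 4 libraries belong to this 1 group, as biological replicates 1 to 4, and there is no control, no other cell type and no treatment arm. The labels gave no sex and no age and gave all 4 libraries the same donor record, without saying whether separate mice were used. Any p-value below thus reflects the spread of these 4 libraries alone, which may be technical in part or in whole. Counts of Xist and of Tsix opposite it, given below, set replicates 1 and 2 apart from 3 and 4. Whether the animals differed was not tested.

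Most lncRNAs are made by RNA polymerase II, capped and spliced like messenger RNAs. Malat1 and Neat1 are neighbours on chromosome 19 and stay in the nucleus, Malat1 at nuclear speckles and Neat1 as the scaffold of paraspeckles. The other 7 are host genes of small nucleolar RNAs (snoRNAs), which lie in their introns and guide chemical modification of ribosomal RNA. Box C/D snoRNAs guide methylation and box H/ACA snoRNAs guide pseudouridylation, each bound by its own set of core proteins. Once the snoRNA is released, the spliced host transcript is in many cases destroyed by nonsense-mediated decay.

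The tables held raw fragment counts per gene, with 1804217 to 2711948 counts per library in 12398 to 14083 genes. Some exon bases are shared between the strands in 8189 of the 50600 genes, and these held 92.2% to 95.9% of the counts. Counts below are therefore those of a gene on the strand that the strand setting picked, and no count is taken as a level of expression. Which strand of the RNA the setting selects depends on the library kit, which is not given in the sources used here, so a count may belong to RNA of the other strand, and this was not tested. Chi-square per degree of freedom over genes was 2.23 between replicates 1 and 2 and 30.9 to 69.4 between the other pairs. Without CT010467.1 it was 2.21 for that pair, 3.38 and 3.54 for replicate 3 against 2 and 1, and 13.1 to 13.9 for replicate 4 against the rest. All pairs differed by more than sampling noise, and the libraries were counted as 4. CT010467.1, a ribosomal RNA gene, took 1.02% and 1.14% of the counts of replicates 1 and 2, 28.6% of replicate 3 and 14.4% of replicate 4. The T cell markers were present on their strand, with 8 of 9 called above 1 TPM, the level per exon length defined below, against 32.1% of all genes with a count. Of the 6 markers of T-helper 2 cells 3 were called above 1 TPM, namely Ptgdr2 with 170 to 223 counts, Gata3 with 20 to 47 and Il4 with 21 to 26. Il1rl1 was at 0 and Il5 and Il13 had 1 count each. Ptgdr2 shares 1031 exon bases with Ccdc86 on the other strand, which had 7 to 16 counts. Gata3 shares 155 with Gm13256, which had 1364 to 2006 counts, and Il4 shares none. Cd8a, Cd79b, Ms4a1, Pax5, Adgre1, Lyz2, Itgam and the 3 NK cell markers were at 0 in all 4 libraries. Cd8b1 had 3 or 4 counts, Cd79a 9 to 15, Cd68 6 to 18 and the mast cell gene Cpa3 7, 0, 5 and 0. Cd79a at 5.92 TPM and Cd68 at 6.29 TPM were also called above 1 TPM, beside 5.96 TPM for Gata3. Cd8b1 and Cpa3 were not called.

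The counts of the 9 genes on their annotated strand were low, and the name "abundant" did not hold for them there. Summed, they had 104, 139, 92 and 23 counts in replicates 1 to 4, or 57.6, 75.3, 33.9 and 10.6 CPM, the usual scaling of counts to the library total with no division by length. The exact 95% intervals of the last 2 shares were 27.3 to 41.6 and 6.72 to 15.9 CPM, and these and all other intervals and floors cover counting error only. Replicate 4 was the lowest and its interval did not meet that of any other library. Ranked by mean count among all 50600 genes, the 9 lay between rank 3368 for Gas5 and rank 10558 for Snhg12. Of the 50600 genes, 17203 had a count in any library.

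**Figure D1:**
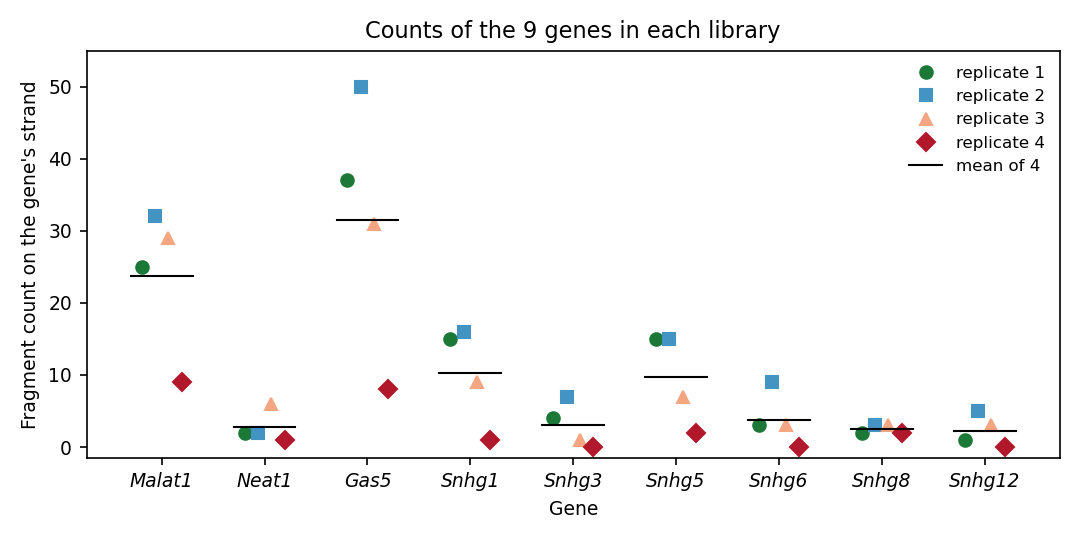
Fragment counts (y axis, linear) of the 9 lncRNA genes (x axis) on their annotated strand in each of the 4 libraries, with the mean as a bar. Gas5 and Malat1 had the highest means, 31.5 and 23.8 counts, and replicate 4 was the lowest or tied for the lowest library of each gene.

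Malat1 is the lncRNA most often used as a marker of nuclear RNA. It is 1 exon of 6983 bases on the minus strand of chromosome 19, from 5795690 to 5802672 (mm10). It had 25, 32, 29 and 9 counts in replicates 1 to 4, a mean of 23.8 ± 10.2 (SD, n = 4). Replicate 4 lay below the other 3, which were close together. Per exon length the level was 2.48 ± 1.17 TPM, where TPM is the count over the exon length, scaled so that all libraries sum alike.

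Neat1 lies 22035 bases from Malat1 on the same strand, from 5824708 to 5845478, and is the longest of the 9 at 20771 exon bases. Its counts were 2, 2, 6 and 1, and its level was 0.0902 ± 0.0598 TPM (SD, n = 4). The highest library of Neat1 was replicate 3, at 0.174 TPM, and no gene of the other strand shares exon bases with it. Frmd8os, which starts 144 bases away on the other strand and was named after its values were seen, had 257, 239, 189 and 273 counts.

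Gas5, first described as a transcript that builds up in growth-arrested cells, lies on the plus strand of chromosome 1, from 161034422 to 161038539. It had the highest counts of the 9, with 37, 50, 31 and 8 in replicates 1 to 4. Its level was 6.23 ± 3.93 TPM (SD, n = 4), with 10.5 TPM in replicate 2 and 1.43 TPM in replicate 4. Gas5 shares no exon base with the other strand, and among the 5729 lncRNA genes without shared bases it ranked 42 by mean count. Of these 5729 genes, 938 had a count in any library and 110 had a mean of at least 10 counts.

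Snhg1 lies on the plus strand of chromosome 19, from 8723475 to 8726443, and is annotated as 1 exon block once its transcripts are merged. It had 15, 16, 9 and 1 counts, or 2.61 ± 1.94 TPM (SD, n = 4). Replicates 1 and 2 were level with each other and replicate 4 held a single fragment. Slc3a2, the amino acid transporter chain that starts 105 bases away on the other strand, had 86 to 111 counts and was named after its values were seen.

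Snhg5 lies on the minus strand of chromosome 9, from 88521050 to 88522929. It had 15, 15, 7 and 2 counts, or 4.28 ± 3.16 TPM (SD, n = 4). The order of the libraries was that of Snhg1, with replicates 1 and 2 highest and replicate 4 lowest.

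The other 4 snoRNA host genes had at most 9 counts in any library. Snhg3, on the minus strand of chromosome 4 from 132348014 to 132353686, had 4, 7, 1 and 0 counts. Snhg6, on the minus strand of chromosome 1 from 9941959 to 9944118, had 3, 9, 3 and 0. Snhg12, on the plus strand of chromosome 4 from 132308678 to 132311024 and 36989 bases from Snhg3, had 1, 5, 3 and 0. Snhg8, on the minus strand of chromosome 3 from 123507552 to 123508404, had 2, 3, 3 and 2 and was the gene with the smallest spread, at 2.5 ± 0.577 counts (SD, n = 4). The 0 counts of Snhg3, Snhg6 and Snhg12 in replicate 4 allow up to 3 counts each, or 1.38 CPM.

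Per exon length the order was Gas5, Snhg5, Snhg1, Snhg6, Malat1, Snhg3, Snhg8, Snhg12 and Neat1, from 6.23 down to 0.0902 TPM. Gas5 exceeded Snhg5 in 4 of 4 libraries, by 1.95 ± 1.41 TPM (SD, n = 4). Snhg5 exceeded Snhg1 in 4 of 4, by 1.68 ± 1.27 TPM. The 5 genes from Snhg1 to Snhg8 had means of 2.10 to 2.61 TPM, and the differences between neighbours among them, 0.00505 to 0.286 TPM, were smaller than their SDs of 1.61 to 2.19. Snhg8 exceeded Snhg12 in 4 of 4 libraries, by 1.08 ± 0.544 TPM. Snhg12 exceeded Neat1 by 0.922 ± 1.04 TPM, a difference within its SD.

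A level in TPM is here a count per exon length on the annotated strand, not a level of expression. Levels could be tested only against a fixed level, here 1 TPM, since the series has no control. With limma's moderated test on log2(TPM + 0.1), two-sided and adjusted over 17203 genes, 3 of the 9 genes were above 1 TPM, against 32.1% of all genes with a count and 18.7% of those without shared bases. Gas5 lay 2.21 above (log2, SE 0.452, adjusted p = 0.00325), Snhg5 1.56 above (SE 0.526, adjusted p = 0.0333) and Snhg8 0.97 above (SE 0.348, adjusted p = 0.0407). The call of Snhg8 rests on 10 counts over all libraries, and the test takes its error from the spread between libraries, not from counting error. Neat1 lay 2.58 below (log2 difference -2.58, SE 0.496, adjusted p = 0.00209), the only 1 of the 9 called below, against 26.6% of all genes and 32.4% of those without shared bases. The other 5 were not called, with adjusted p from 0.0548 for Malat1 to 0.987 for Snhg3. The median level of the 9 was 2.48 TPM, beside 1.14 TPM for all genes with a count and 0.731 TPM for those without shared bases.

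Calls near the threshold changed with the libraries used. Without replicate 4 the log2 levels were 1.49 for Malat1 (adjusted p = 0.00121), 1.58 for Snhg1 (adjusted p = 0.00204) and 1.38 for Snhg6 (adjusted p = 0.0142), so that 6 of the 9 were called above. Over all genes with a count, 6452 of 16573 were called above in that setting. Without replicate 1, 2 or 3 the calls of Snhg5 and Snhg8 were lost, with adjusted p of 0.131, 0.111 and 0.0744 for Snhg5 and 0.111, 0.171 and 0.141 for Snhg8, and Gas5 alone was called above. Over all genes with a count, 5090 of 16515, 5161 of 16460 and 5097 of 16396 were called above in those settings. The log2 levels were then 1.18 to 1.68 for Snhg5 and 0.83 to 1.00 for Snhg8, from 3 libraries in place of 4.

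Only Malat1, Snhg3 and Snhg6 share exon bases with genes of the other strand, in 4 pairs, and in each pair the other strand held the counts. Malat1 covers the whole of Gm37376, a gene model of 453 exon bases at chromosome 19, 5801941 to 5802393, and of ENSMUSG00000092267, of 425 exon bases at 5797562 to 5798549. Snhg3 shares 705 of its 986 exon bases with the lncRNA gene Gm17300. Snhg6 shares 127 bases with the last exon of Mcmdc2, a gene of the minichromosome maintenance domain family. The stretches below were read from GENCODE M21 transcripts and are written on the strand of the lncRNA gene (mm10), because they are the bases where the strand alone decides which gene is counted.
Malat1 at chr19:5802244-5802413, minus strand, with the first 150 bases shared with Gm37376 in capitals: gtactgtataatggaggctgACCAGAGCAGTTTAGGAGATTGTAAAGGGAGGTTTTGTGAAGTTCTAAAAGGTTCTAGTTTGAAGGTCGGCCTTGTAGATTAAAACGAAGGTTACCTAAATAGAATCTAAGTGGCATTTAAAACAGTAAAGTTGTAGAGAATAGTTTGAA
Malat1 at chr19:5798400-5798569, minus strand, with the first 150 bases shared with ENSMUSG00000092267 in capitals: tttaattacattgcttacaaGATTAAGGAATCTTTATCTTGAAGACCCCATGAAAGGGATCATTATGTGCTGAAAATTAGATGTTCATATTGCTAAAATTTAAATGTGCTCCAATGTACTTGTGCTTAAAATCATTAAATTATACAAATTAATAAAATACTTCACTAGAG
Snhg3 at chr4:132353153-132353356, minus strand, with the Snhg3 exon that lies inside an exon of Gm17300 in capitals: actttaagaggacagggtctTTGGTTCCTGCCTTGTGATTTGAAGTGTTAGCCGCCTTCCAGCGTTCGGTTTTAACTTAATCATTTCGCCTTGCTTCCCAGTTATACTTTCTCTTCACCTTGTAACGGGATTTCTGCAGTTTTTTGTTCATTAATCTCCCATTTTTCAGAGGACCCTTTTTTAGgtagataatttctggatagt

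**Figure D2:**
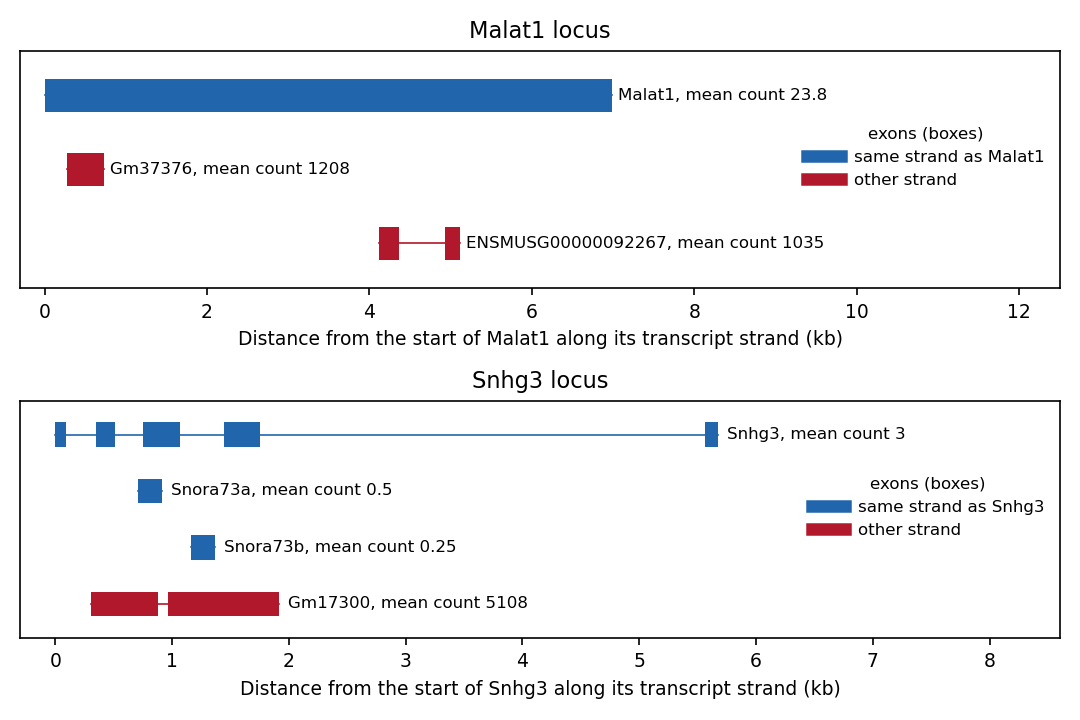
Maps of the Malat1 and Snhg3 loci to scale, with the distance in kilobases from the start of the lncRNA gene along its own strand on the x axis, and its exons and those of the same strand in blue and of the other strand in red. Both red gene models of the Malat1 locus lie inside its exon, with mean counts of 1208 and 1035 beside 23.8 for Malat1, and Gm17300 lies over Snhg3 and both its snoRNAs with 5108 beside 3.

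Gm37376 had 1089, 753, 1361 and 1631 counts in replicates 1 to 4, and ENSMUSG00000092267 had 908, 634, 1176 and 1423. Both were lowest in replicate 2, where Malat1 was highest, and highest in replicate 4, where Malat1 was lowest. The ratio of Gm37376 to ENSMUSG00000092267 was 1.17 ± 0.025 over the libraries (SD, n = 4), so the 2 models moved together. Together they cover 878 bases, 12.6% of the Malat1 exon, and had 79.9, 43.3, 87.5 and 339 times the counts of Malat1 in replicates 1 to 4. Per exon base the summed counts of Gm37376 exceeded those of Malat1 784-fold (95% exact conditional interval 640 to 971), and those of ENSMUSG00000092267 exceeded them 716-fold (584 to 887).

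Gm17300 had 5244, 5011, 5460 and 4718 counts, which ranked it 41 among all genes. The libraries of Gm17300 differed little, at 5108 ± 318 counts (SD, n = 4), while Snhg3 went from 7 counts to 0. Per exon base Gm17300 exceeded Snhg3 1099-fold (95% exact conditional interval 629 to 2128). Besides Snhg3 it shares 205 bases with Snora73b, 175 with Snora73a and 19 with Rcc1, the nucleotide exchange factor of the GTPase Ran, which had 6 to 21 counts on the strand of Snhg3. Mcmdc2 had 384, 322, 305 and 235 counts, and per exon base exceeded Snhg6 by 16.1-fold (9.72 to 28.8). Only 2.15% of the exon bases of Mcmdc2 lie in Snhg6, and the gene totals do not separate counts of shared and of other bases.

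The log2(TPM + 0.1) difference within a library, lncRNA gene minus the gene of the other strand, was below 0 in 4 of 4 libraries in each pair. It was -9.63 ± 1.19 for Malat1 minus Gm37376 and -9.50 ± 1.21 for Malat1 minus ENSMUSG00000092267 (SD, n = 4). It was -11.10 ± 2.44 for Snhg3 minus Gm17300 and -4.91 ± 2.25 for Snhg6 minus Mcmdc2. With counts of the lncRNA gene under 3 put at 3, the limit that a count of 0 allows, these last differences were -9.64 ± 0.569 and -3.85 ± 0.777. A two-sided exact permutation of the signs gave p = 0.125 in every pair, and 0.125 after adjustment over the 4 pairs, the smallest value 4 libraries can give. This test cannot pass a threshold of 0.05 with 4 libraries. Without replicate 4 the differences of Snhg3 and Snhg6 were -10.02 and -3.85, and without replicate 2 they were -11.86 and -5.62.

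**Figure D3:**
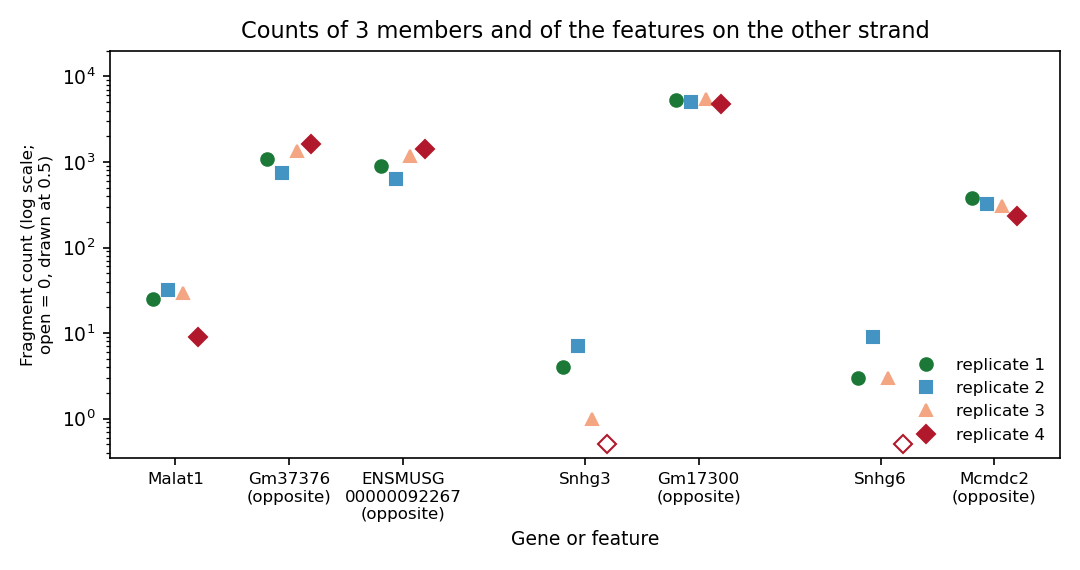
Fragment counts (y axis, log scale, with 0 drawn as an open symbol at 0.5) of Malat1, Snhg3 and Snhg6 and of the genes on the other strand that share at least 50 exon bases with them, in each library. The counts of the other strand lie between 235 and 5460, above all counts of the lncRNA genes, which lie between 0 and 32.

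The 9 genes contain 33 smaller gene models of the same strand, of which 29 are snoRNAs. Gas5 holds 10 snoRNA models, Snhg1 holds 8, Snhg12 holds 5, Snhg3 and Snhg5 hold 2 each, and Snhg6 and Snhg8 hold 1 each. Merging all annotated transcripts put 24 of the 29 wholly inside exon bases of the host, and those 24 had 0 counts. The header lists no option for fragments that overlap more than 1 gene, so a fragment inside such a snoRNA also overlaps its host and could not be assigned to the snoRNA alone. Their 0 counts therefore say nothing about the snoRNAs. Of the 5 snoRNA models that lie partly or wholly in host introns, 3 had a count, namely Snora73a with 2 counts over the 4 libraries, Snora73b with 1 and Snord87 with 1. The rest are models of Snora16a that overlap each other and had 0 counts, so the same limit applies to them. Among all 1507 snoRNA genes, 107 or 7.10% had a count in any library, a share that includes models wholly inside host exons.

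Examples of the hosted snoRNAs are shown because their conserved boxes tell the 2 classes apart (GENCODE M21 transcripts, mm10, with boxes C and D, or the terminal ACA, in capitals).
Snord47 of Gas5 at chr1:161038082-161038158, plus strand: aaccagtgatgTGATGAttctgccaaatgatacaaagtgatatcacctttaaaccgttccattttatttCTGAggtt
Snord50a of Snhg5 at chr9:88521529-88521600, minus strand: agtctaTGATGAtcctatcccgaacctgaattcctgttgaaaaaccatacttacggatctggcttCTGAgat
Snord87 of Snhg6 at chr1:9942463-9942549, minus strand: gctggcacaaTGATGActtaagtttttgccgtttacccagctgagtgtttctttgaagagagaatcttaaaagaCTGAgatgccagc
Snora24 of Snhg8 at chr3:123507937-123508066, minus strand: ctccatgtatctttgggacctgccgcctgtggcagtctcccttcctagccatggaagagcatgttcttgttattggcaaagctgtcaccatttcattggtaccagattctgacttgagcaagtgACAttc
Snora73b of Snhg3 at chr4:132352322-132352526, minus strand: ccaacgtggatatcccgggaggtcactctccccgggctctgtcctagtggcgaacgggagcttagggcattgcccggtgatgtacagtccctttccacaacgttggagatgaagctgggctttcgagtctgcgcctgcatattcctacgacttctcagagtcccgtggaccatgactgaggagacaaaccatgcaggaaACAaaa
In Snord47, Snord50a and Snord87 the sequence TGATGA stood near the 5′ end and CTGA near the 3′ end, and in Snora24 and Snora73b ACA stood 3 bases before the end.

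Replicate 4 was the low library of these genes. Its log2 CPM, with a prior of 0.5 counts, was set against the mean of the other 3 libraries, with no test, because it is 1 library and was already known to stand apart. In 8 of the 9 genes it was more than 1 lower, against 42.5% of the 10718 genes without shared bases and with a count in the other libraries, and in none more than 1 higher. Malat1, Snhg3 and Snhg6, which are among the 8, share bases and are not of that class. Only Malat1, Gas5, Snhg1 and Snhg5 had a mean of at least 10 counts in the other 3 libraries, and all 4 were more than 1 lower. Among genes with the same minimum the share more than 1 lower was 56.5% of the 2721 without shared bases, the class of Gas5, Snhg1 and Snhg5, and 11.1% of the 3408 that share at least 50 bases, the class of Malat1. The shares more than 1 higher were 1.29% and 3.20%. The deviation was -1.67 for Malat1, -2.26 for Gas5, -2.34 for Snhg5 and -3.22 for Snhg1. Among genes without shared bases the median was -1.25 and the middle 50% ran from -2.24 to -0.22, so that Snhg1, Snhg5 and Gas5 lay below the lower quartile.

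Snhg6, Snhg3 and Snhg12, at 0 counts in replicate 4, had deviations of -3.35, -2.95 and -2.68, which depend on the prior. The ratio of the CPM of replicate 4 to that of the other 3 pooled was 0.307 for Malat1 (95% exact conditional interval 0.136 to 0.610), 0.199 for Gas5 (0.0839 to 0.405), 0.158 for Snhg5 (0.0185 to 0.614) and 0.0733 for Snhg1 (0.00181 to 0.433). For Neat1, Snhg3, Snhg8 and Snhg12 the interval included 1, so a lower level in replicate 4 was not detectable at this depth. Snhg8, with a deviation of -0.38, was the 1 gene of the 9 that was not more than 1 lower.

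The genes of the other strand deviated otherwise in replicate 4, by 0.59 for Gm37376, 0.64 for ENSMUSG00000092267, -0.21 for Gm17300 and -0.57 for Mcmdc2. The value of Gm17300 turned to 0.0079 with TMM library sizes and 0.12 with DESeq2 size factors. At the Malat1 locus replicate 4 was thus low on the strand of Malat1 and high on the other strand.

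**Figure D4:**
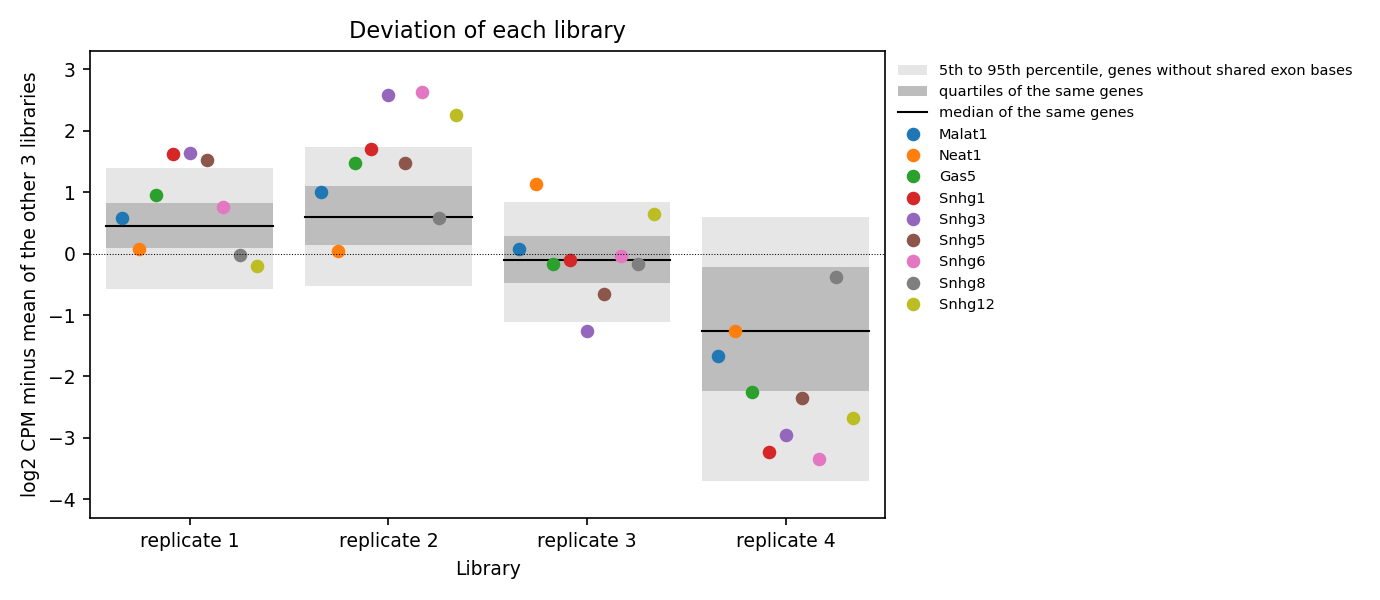
Deviation in log2 CPM of each library from the mean of the other 3 libraries (y axis) for the 9 genes, with the 5th to 95th percentile, the quartiles and the median of genes without shared exon bases and a mean of at least 10 counts in the other libraries as bands and a line. In replicate 4 the points lie between -3.35 and -0.38, and the median of the background genes is -1.25.

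Other measures moved with replicate 4. It had the fewest genes with a count, 12398. CT010467.1 held 14.4% of its counts and 28.6% of those of replicate 3. The median deviation of the 9 genes in replicate 3 was -0.10, against a mean that includes replicate 4. With replicate 4 left out, 5 of the 9 genes were more than 1 lower in replicate 3. No share over all genes is given for that setting, so this is not read as a trait of the 9. Leaving CT010467.1 out of the totals moved the deviation of Malat1 from -1.67 to -1.62. The 9 T cell markers had 217, 276, 206 and 70 summed counts, and all 9 had a mean of at least 10 counts in the other libraries, of which 8 were more than 1 lower in replicate 4. The 6 T-helper 2 markers had 240, 292, 281 and 219, of which Ptgdr2 alone had 196, 223, 212 and 170, and none of the 3 that passed the minimum was more than 1 lower. Ptgdr2 and Gata3 share 1031 and 155 exon bases with genes of the other strand, the class in which 11.1% were more than 1 lower, while Il4 and 8 of the 9 T cell markers share none. The part of RNA quality, batch or cell makeup in the low counts of the 9 genes was not tested. Nor was that of strand selection, since a count may belong to RNA of the other strand. Fewer cells of a type and less RNA per cell cannot be told apart in bulk RNA.

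In replicate 2, 7 of the 9 genes were more than 1 above the mean of the other 3, against 32.4% of genes without shared bases and with a count in the other libraries. Malat1, Snhg3 and Snhg6, which are among the 7, share bases and are not of that class. Snhg6 led at 2.63, before Snhg3 at 2.57. Of the 2 genes with a mean of at least 10 counts in the other libraries, Malat1 was 1.01 higher and Gas5 1.48 higher. The same limit was passed by 29.4% of genes without shared bases, the class of Gas5, and by 5.22% of those that share at least 50 bases, the class of Malat1. With replicate 4 left out of the mean, 3 of the 9 genes were more than 1 higher in replicate 2, namely Snhg3, Snhg6 and Snhg12. In replicate 1, 3 of the 9 genes were more than 1 higher, Snhg3 by 1.64, Snhg1 by 1.62 and Snhg5 by 1.52. None was with replicate 4 left out. With a mean of at least 10 counts in the others, 14.9% of genes without shared bases passed the limit, as did 2.87% of those sharing at least 50. Snhg1, Snhg3 and Snhg5 had fewer counts than this minimum, and Malat1 and Gas5, which met it, were not more than 1 higher. In replicate 3 Neat1 was 1.14 higher and Snhg3 1.26 lower (deviation -1.26). Both had fewer counts than the minimum, at which 2.82% of genes without shared bases, the class of Neat1, were more than 1 higher. Of those sharing at least 50, the class of Snhg3, 5.18% were more than 1 lower. With replicate 4 left out of the mean, 5 of the 9 genes were more than 1 lower in replicate 3. These were Gas5 (-1.04), Snhg1 (-1.32), Snhg3 (-2.52), Snhg5 (-1.62) and Snhg6 (-1.29), and none was more than 1 higher. No share over all genes is given here with replicate 4 left out, so those counts are not read as a trait of the 9 genes.

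None of the 9 genes passed the expression filter of edgeR, so they were not in the test of the spread between libraries. With no filter none of the 9 was among the 345 of 17203 genes called. Of the 9, Gas5 had the lowest adjusted p, 0.535 (unadjusted 0.0271). Its quasi-likelihood fit called 0 of the 4190 genes tested (0.00%) at the adjusted threshold of 0.05, while 268 (6.40%) passed 0.05 before adjustment. DESeq2 marked 27 of 17203 genes as dispersion outliers, none of them among the 9. Gm37376 and ENSMUSG00000092267 had adjusted p of 0.648 and 0.625. Without replicate 4 both were called, with adjusted p of 0.000362 and 0.000488, among 20 genes.

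Genes of the same kind were compared by their counts of calls. Of the 12 other snoRNA host genes listed, 10 were matched in the table and 7 of them had a count. Of these 7, 1 was called above 1 TPM and 3 below, against 32.1% and 26.6% of all genes with a count. That 1 was Snhg14, the long host transcript that runs opposite the ubiquitin ligase gene Ube3a, with 1992, 1895, 2311 and 1878 counts or 55.3 ± 5.81 TPM (SD, n = 4). Snhg14 shares 1803 exon bases with Ube3a, which had 32.3 ± 6.13 counts. Zfas1 had 2.28 ± 1.43 TPM, Snhg15 had 1.69 ± 2.05 and Snhg9 had 0.823 ± 1.65, and none of these passed the test. The median of the 10 matched genes, 3 of them at 0 in all libraries, was 0.282 TPM, beside 2.48 TPM for the 9 genes.

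Of 18 other well known lncRNAs, 12 had a count and 6 were at 0 in all libraries. Of the 12, 2 were called above 1 TPM and 4 below, against the same 32.1% and 26.6% of genes with a count. Tug1, which shares 180 exon bases with Morc2a, had 158, 187, 158 and 362 counts or 18.5 ± 7.64 TPM, and was higher in replicate 4, by 1.05 in log2 CPM. Oip5os1, also known as Cyrano, had 3.92 ± 1.35 TPM with no shared bases. Xist, the RNA that coats the inactive X chromosome, had 85, 94, 8 and 2 counts, and Tsix, which lies opposite, had 4004, 3437, 7 and 2, so replicates 1 and 2 stood apart from 3 and 4 at this locus. Whether the animals of these libraries differed, in sex or otherwise, was not tested. Norad, which binds Pumilio proteins, had 1.48 ± 1.44 TPM, and neither Xist nor Norad passed the test.

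Proteins that work with these RNAs were set beside the 32.1% of all genes called above 1 TPM. Of the 9 paraspeckle proteins, which assemble on Neat1, 6 were called above and none below. Hnrnpk had 22.4 ± 5.31 TPM, Sfpq 22.1 ± 9.06, Nono 17.3 ± 8.65 and Pspc1 7.77 ± 3.28 (SD, n = 4), while Neat1 itself was the lowest of the 9 lncRNA genes. Of the 4 box C/D core proteins 3 were called above, with Nop56 at 13.2 ± 7.65 TPM, the methyltransferase Fbl at 8.36 ± 3.55 and Nop58 at 6.21 ± 3.69. Of the 5 box H/ACA proteins 4 were called above, led by Nhp2 at 34.0 ± 4.72 TPM and the pseudouridine synthase Dkc1 at 9.80 ± 5.17. Of the 8 nonsense-mediated decay factors 6 were called above, led by the helicase Upf1 at 9.13 ± 1.80 TPM and Upf3b at 6.86 ± 3.71. All these values are counts per exon length on the annotated strand, and no difference between lists was tested.

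**Figure D5:**
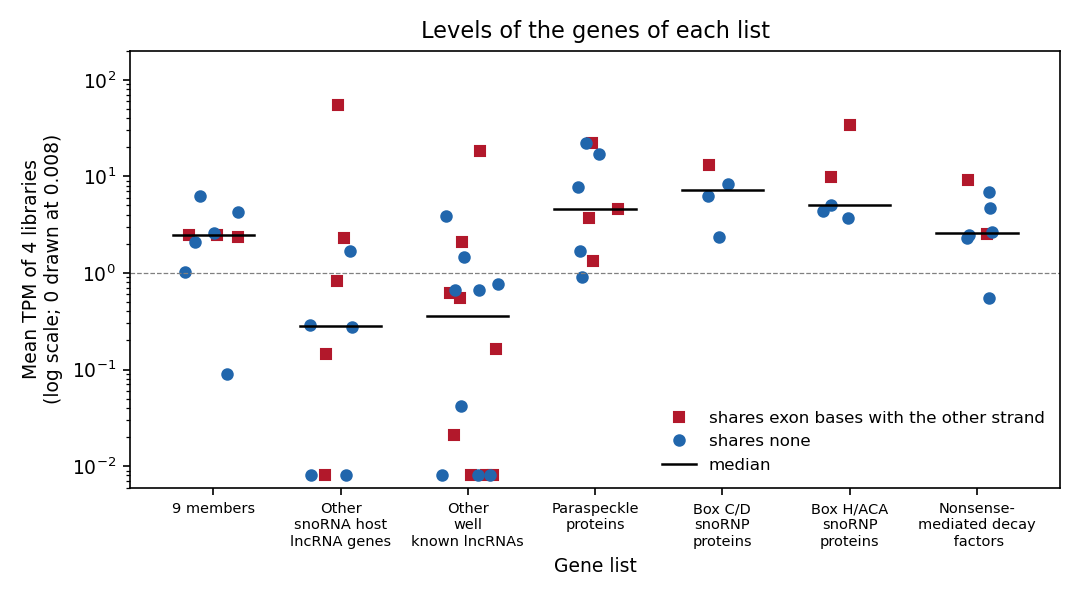
Mean TPM over the 4 libraries (y axis, log scale, 0 drawn at 0.008) of each gene of the 9 lncRNA genes and of 6 other lists (x axis), as squares where the gene shares exon bases with the other strand and circles where it shares none, with the median as a bar. The medians, which include genes at 0, are 2.48 TPM for the 9 genes, 0.282 and 0.360 for the other host genes and lncRNAs, and 2.62 to 7.29 for the protein lists.

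Many snoRNA host genes are known to start with a run of pyrimidines, the terminal oligopyrimidine tract they share with ribosomal protein genes. RefSeq start windows (GRCm38.p6) were found for 7 of the 9 genes, 8 windows in all, and 5 are shown, those with a run of 3 or more pyrimidines and, for contrast, that of Malat1, from 40 bases before the start to 20 from it, with the pyrimidines that begin at the start in capitals.
Gas5, second start, at chr1:161035126-161035185, plus strand: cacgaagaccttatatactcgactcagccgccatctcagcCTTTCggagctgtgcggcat
Snhg8 at chr3:123508317-123508376, minus strand: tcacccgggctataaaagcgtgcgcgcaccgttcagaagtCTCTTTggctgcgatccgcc
Snhg1 at chr19:8723447-8723506, plus strand: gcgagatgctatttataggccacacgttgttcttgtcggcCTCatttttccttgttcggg
Snhg12 at chr4:132308638-132308697, plus strand: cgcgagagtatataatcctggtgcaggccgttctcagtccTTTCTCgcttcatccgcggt
Malat1 at chr19:5802653-5802712, minus strand: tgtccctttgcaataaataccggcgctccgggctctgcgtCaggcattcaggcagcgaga
A run of at least 5 pyrimidines that begins with C at the start was found in 2 of the 8 windows, those of Gas5 and Snhg8, and in 2.51% of 32851 windows of all genes. TATAA or TTATA, which can overlap each other, was searched on the transcript strand only, 15 to 40 bases before the start. It was found in 5 of the 8 windows (Gas5, Snhg1, Snhg5, Snhg8 and Snhg12) and in 4.35% of all windows. These motifs were chosen after the windows were seen, and a match is a description of letters only.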

How the data were processed

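Per the file headers, the authors counted paired fragments with both ends aligned over exons of GENCODE M13 genes, using featureCounts 1.4.6-p4 with strand setting 1; the assembly in the labels is mm10. The assay is labelled total RNA-seq, but the linked protocol's name has poly(A) RNA. The deposited values are raw counts. Symbols were matched for 50376 of 50600 IDs.

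TPM was obtained by dividing each count by exon length and rescaling per library. Levels were tested with limma 3.58.1 (trended, robust), two-sided, and spread with edgeR 4.0.16 (intercept only, TMM factors, default filter), both with Benjamini-Hochberg adjustment. Alternatives used DESeq2 1.42.0, under R 4.3.3, and exact tests used scipy 1.17.1 under Python 3.11.15. On simulated counts the level test recovered 90.5% of 200 genes put at 4 TPM and 75.5% of 200 put at 0.25 TPM. The spread test recovered 139 of 189 genes changed 4-fold in 1 library. The simulation gave all genes the same fixed dispersion and, for the level test, the same mean share in all 4 libraries. The real libraries differed more, with replicate 4 apart, so these rates may overstate the recovery in these data. The robust prior of the spread test, its strictness set by genes that are not outliers, was adopted after a simulation with the ordinary prior recovered none, with counts of calls from these data in view.

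The 9 genes, the lists and the tests were chosen with earlier results of these data known. The named genes were the 9, the genes opposite or inside them, and up to 4 of each list by mean TPM; markers served as a check of the label and were named outside that rule, after their values were seen. Totals without CT010467.1, the minimum of 10 counts, the start motifs and the neighbours were chosen after the data had been seen. The 4 libraries form 1 group and replicates were not paired. Snhg7 and Snhg10 were not matched and are not analysed here.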

Additional observations from a re-analysis of the deposited data

How the results depend on the processing

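Of the 9 genes, those called above 1 TPM, 3 as reported, were 1 at a level of 2 TPM and 1 to 6 with a replicate left out, and those called below, 1 as reported, were 0 among the 3 with a mean count of at least 10, since Neat1 was not tested there. Malat1 was also called with TMM factors (adjusted p = 0.0411), with totals without CT010467.1 (0.0408) and at a mean count of at least 10 (0.0394), and Snhg8 was lost at a pseudocount of 1 (0.061). Over all genes, 5523 called above became 4467 at 2 TPM and 5090 to 6452 with a replicate left out. The 4571 called below became 7779 at 2 TPM, 13 at a mean count of at least 10, and 2410 to 2928 with a replicate left out. The spread test called 0 genes as reported, also with the ordinary prior, 1 with DESeq2 size factors, 345 with no filter, among them both gene models opposite Malat1, 27 as DESeq2 dispersion outliers, and 0 to 20 with a replicate left out. The deviation of Gm17300 in replicate 4 turned from -0.21 to 0.0079 with TMM and 0.12 with DESeq2 size factors. The number of the 9 genes more than 1 higher in replicate 2 went from 7 to 3 without replicate 4. The number more than 1 lower in replicate 3 went from 1 to 5 without replicate 4. No share over all genes is given beside these numbers without replicate 4. The number more than 1 lower in replicate 4 was 7 or 8 in all 6 alternatives, and the 4 differences between strands kept their sign in all 6 of theirs. No paired analysis was possible because all libraries are of 1 group. Depth limits the 9 genes: none has a mean above 31.5 counts.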
